A study of Mus musculus with 8 samples.

Results

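The hypoxia-inducible factor (HIF) system genes described here are the 10 genes *Hif1a*, *Epas1*, *Arnt*, *Vhl*, *Egln1*, *Egln3*, *Bnip3*, *Ddit4*, *Adm* and *Ankrd37*, chosen by name from the 54532 genes of a table of RNAseq read counts. All 10 were found. The table holds 8 libraries of mG+ cells, the cells that express membrane GFP, sorted by FACS from female mice aged 8 months. The EC-*Tert*-KO mice (KO) were Tie2e-cre; TERTfl/fl; mTmG and their WT littermates Tie2e-cre; TERT+/+; mTmG, so mice of both genotypes carried the Cre transgene and the reporter. The 4 tissue and diet conditions were subcutaneous adipose tissue (SAT) after a high-fat diet (HFD) given from month 1 until month 8, and, on chow, SAT, visceral adipose tissue (VAT) and gastrocnemius muscle. Each condition is a pair of a single KO library and a single WT library. The Cre is driven by the Tie2e promoter, so the lineage and not the state of a cell at sorting determined whether it was mG+. The sources used here do not say whether a library pools mice or whether 1 mouse gave several of the chow tissues.

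Cells sense oxygen through the HIF system. HIF is a dimer of an oxygen-regulated alpha subunit, *Hif1a* or *Epas1* (HIF-2α), and the constant beta subunit *Arnt*. With oxygen at hand, the prolyl hydroxylases *Egln1* (PHD2) and *Egln3* (PHD3) modify the alpha subunits, *Vhl* recognizes the modified protein, and it is degraded. When oxygen falls the protein escapes and the dimer switches on its targets. *Epas1* is characteristic of endothelial cells (EC). *Bnip3*, *Ddit4*, *Adm* and *Ankrd37* are targets, and *Egln3* is also one. As the alpha subunits are controlled mainly as proteins, their transcript level is not a measure of HIF activity.

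HIF binds the letters ACGTG or GCGTG. These were searched on both strands in the 250 bases before the RefSeq start of each gene (GRCm38.p6), where *Bnip3* had 5 matches, *Ankrd37* 4, *Hif1a* 3, *Egln1*, *Ddit4* and *Adm* 2 each, *Arnt* and *Egln3* 1 each and *Vhl* 0. Of 32851 start windows of the same length, 38.6% held at least 1 match, 6.58% at least 3 and 1.01% at least 5. Both motifs contain CG, which was more frequent in the windows of these genes than in 53.7% (*Adm*) to 99.9% (*Egln1*) of all windows. For *Bnip3* that figure was 88.0%. The shares of windows with matches are not matched for CG. An overlap of matches (CACGTG) was counted on both strands. *Epas1* was not among the 9 genes matched to a promoter. In the KO library of chow-fed SAT, *Bnip3*, *Ddit4* and *Ankrd37* had lower values and *Adm* a higher one. A wider list of targets, given last, had more genes higher than lower in that pair. So did all genes, with 19.1% higher and 11.5% lower beyond 2-fold. The upstream sequences of the 4 targets among the 10 genes are printed. They read 5′ to 3′ on the strand of the gene, stop where an annotated exon begins, and carry the matches in capitals, of which 3 of 4 fall in the printed part of *Ankrd37*. The *Bnip3* stretch is chr7:138909520-138909756 (minus strand), that of *Ddit4* chr10:59951835-59952020 (minus), that of *Ankrd37* chr8:45999868-46000100 (minus) and that of *Adm* chr7:110627407-110627656 (plus). The *Ankrd37* stretch lies before a RefSeq start but inside the gene span used for the counts (chr8:45996902-46005707). The window searched for *Hif1a* also lies inside its gene span.
*Bnip3*: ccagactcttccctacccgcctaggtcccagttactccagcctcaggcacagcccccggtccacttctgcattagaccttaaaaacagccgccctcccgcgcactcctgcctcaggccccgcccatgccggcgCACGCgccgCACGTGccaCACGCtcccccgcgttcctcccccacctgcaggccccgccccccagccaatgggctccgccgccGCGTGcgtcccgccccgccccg
*Ddit4*: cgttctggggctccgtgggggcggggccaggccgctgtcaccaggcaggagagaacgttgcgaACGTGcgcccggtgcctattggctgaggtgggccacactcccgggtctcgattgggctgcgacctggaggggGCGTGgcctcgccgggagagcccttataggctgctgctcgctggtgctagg
*Ankrd37*: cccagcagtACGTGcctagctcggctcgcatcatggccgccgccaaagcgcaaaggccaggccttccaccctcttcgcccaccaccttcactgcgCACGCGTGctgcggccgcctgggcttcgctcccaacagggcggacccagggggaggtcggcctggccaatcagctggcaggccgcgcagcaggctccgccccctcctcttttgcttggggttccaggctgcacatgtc
*Adm*: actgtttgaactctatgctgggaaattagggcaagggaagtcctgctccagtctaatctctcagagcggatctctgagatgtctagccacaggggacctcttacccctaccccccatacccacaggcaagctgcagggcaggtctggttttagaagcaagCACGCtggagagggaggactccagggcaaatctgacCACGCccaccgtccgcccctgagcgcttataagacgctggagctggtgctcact
A match is a run of letters and not a site shown to be bound.

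The libraries held 6214269 (SAT on HFD, WT) to 18855772 counts (SAT on chow, WT), which were scaled by TMM to counts per 1000000 (CPM). 3 counts, the floor used for bounds, equal 0.184 to 0.434 CPM. *Tert*, the deleted gene, had 114 WT and 0 KO counts for HFD-fed SAT, 70 and 11 for chow-fed SAT and 24 and 7 for muscle, but 3 in the VAT library labelled WT and 9 in the one labelled KO, so directions taken from VAT rest on labels that *Tert* does not bear out. All 19 endothelial markers were above 3 counts in every library, and their summed level was 467 to 955 CPM in the 4 SAT libraries and 2400 to 3400 CPM in VAT and muscle. Markers of other cells were also present: 10 macrophage genes summed to 14500 and 14600 CPM in VAT and 413 to 5670 CPM elsewhere, and 10 neutrophil genes to 27700 and 32300 CPM in muscle and 65.8 to 466 CPM elsewhere. The 8 B cell genes reached 4680 CPM and the 10 T cell genes 4810 CPM in SAT on chow, WT. Of 8 adipocyte genes, 6 were at 0 in both libraries from SAT on HFD, *Adipoq*, *Plin1*, *Cidec* and *Lep* among them. The 8 still summed to 153 CPM (WT) and 79.0 CPM (KO) there, and to 135 to 437 CPM in chow-fed SAT and muscle. In the VAT libraries labelled WT and KO they summed to 486 and 824 CPM, with 8 and 7 genes above 3 counts. In SAT, 12 stromal genes summed to 1200 CPM in the chow WT library, 4350 CPM in its KO partner and 2940 to 3280 CPM on HFD, and a single transcript, *Gm26917*, took 9.72% of the counts of the SAT HFD WT library. In bulk RNA of this kind, fewer cells of a type and less RNA per cell cannot be told apart.

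Of the 10 genes, *Epas1* differed most between chow-fed SAT and the other tissues, and *Hif1a* far less. *Epas1* (ENSMUSG00000024140, chr17:86753907-86833410 in GRCm38) measured 34.7 CPM (WT) and 43.7 CPM (KO) in HFD-fed SAT, and 46.0 and 134 CPM in chow-fed SAT. It measured 412 and 342 CPM in the VAT libraries labelled WT and KO, and 335 and 467 CPM in muscle. Every VAT and muscle library thus stood above every SAT library, with a 13.5-fold span from lowest to highest. How many of all genes separate SAT from VAT and muscle in this way was not counted. *Hif1a* (ENSMUSG00000021109, chr12:73901375-73947530) measured 92.1 and 126 CPM (WT and KO) in HFD-fed SAT, 126 and 175 CPM in chow-fed SAT, 184 and 205 CPM in VAT, and 191 and 119 CPM in muscle, a 2.23-fold span. Its SAT and muscle libraries overlapped. It shares its place with the antisense gene *Gm15283*, which had 6 to 77 counts. Per kilobase of transcript, the level of *Epas1* was 0.385 to 0.847 times that of *Hif1a* in SAT and 1.85 to 4.37 times that of *Hif1a* in VAT and muscle, so that their order turned between SAT and the other tissues.

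**Figure D1:**
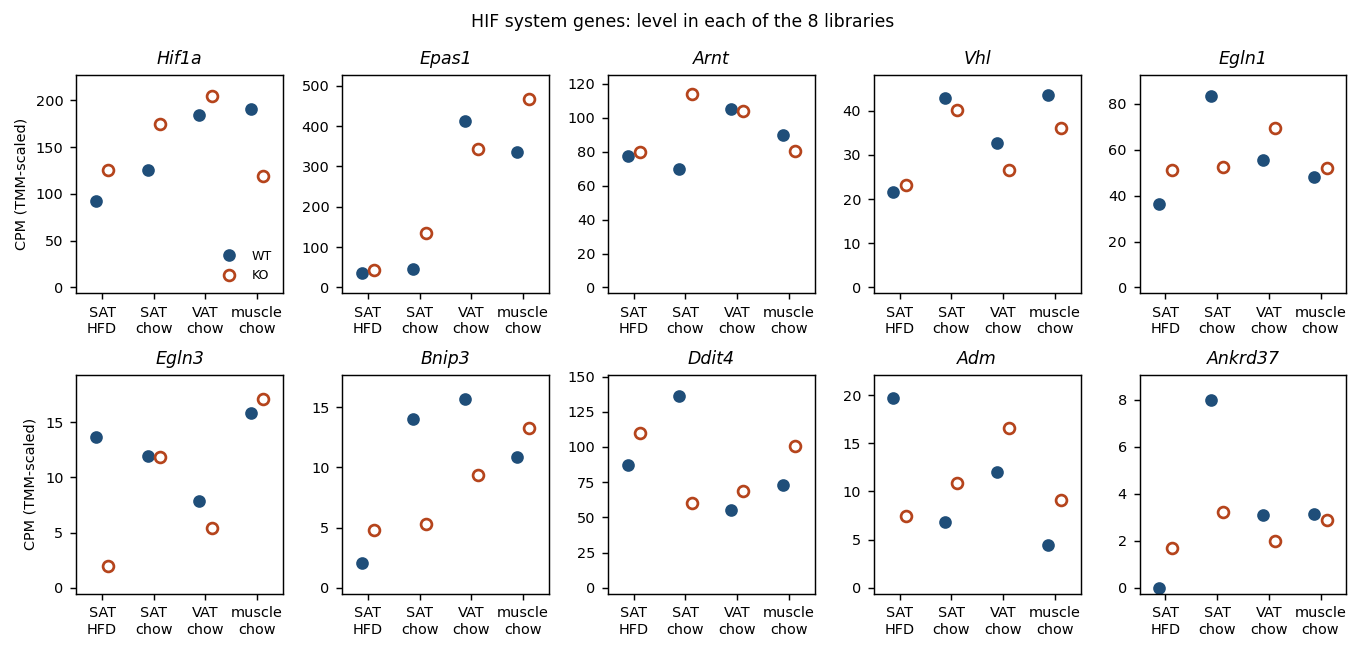
Level of each of the 10 genes in the 8 libraries, as TMM-scaled CPM on linear axes from 0, with filled circles for WT and open circles for KO and 1 point per library. *Epas1* stays between 34.7 and 134 CPM in SAT and between 335 and 467 CPM in VAT and muscle, whereas *Hif1a* spans 92.1 to 205 CPM in all.

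On chow, *Epas1* was higher in VAT than in SAT by a log2 fold change of 2.22 (SE 0.46), 4.66-fold, with 2 libraries a side and genotype in the model. Its adjusted p was 0.0355 (edgeR's quasi-likelihood test, Benjamini-Hochberg over 16971 genes). It was the 1 of 10 members that passed, where 5.0% of all genes passed. The 2 libraries of each tissue did not overlap for *Epas1*, which held for 56.6% of all genes. The call was lost with upper quartile scaling (adjusted p = 0.059) and without the SAT HFD KO, VAT KO or VAT WT library (0.0623, 0.066 and 0.187), while without the SAT chow KO library the log2 fold change was 2.96 (adjusted p = 0.00451). In muscle against SAT on chow the value was nearly as large, 2.25 (SE 0.45), but missed the threshold (adjusted p = 0.0634, with 1.27% of all genes called), although the libraries did not overlap, as for 44.1% of all genes. It passed without the SAT chow KO library (3.02, adjusted p = 0.009). Both comparisons share the chow-fed SAT libraries. Between muscle and VAT, *Epas1* differed by 0.03 (SE 0.43), and 0 members passed, against 2.02% of all genes.

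The summed endothelial markers moved with *Epas1*. Given as a percentage of that sum, the *Epas1* level was 7.44 and 9.09 in HFD-fed SAT (WT and KO), 5.57 and 14.0 in chow-fed SAT, 13.1 and 14.2 in VAT, and 12.2 and 13.7 in muscle. On this scale the SAT chow KO library lay among those of VAT and muscle, and the other 3 SAT libraries lay below them. As a percentage of the endothelial sum, *Hif1a* ran the other way, at 15.3 to 26.3 in SAT and 3.49 to 8.54 in VAT and muscle. The sum ran from 467 to 3400 CPM and *Hif1a* only from 92.1 to 205 CPM, so its percentage mainly follows the sum. The part of endothelial content in the tissue difference of *Epas1* was not tested. The genes whose log2 CPM followed *Epas1* most closely over the 8 libraries, among 12368 genes of at least 50 counts on average, were *Efnb2*, the arterial ephrin B2 (Pearson's r = 0.998), *Ptprb*, an endothelial receptor phosphatase (0.997), and *Plxna2* (0.997). Closest to *Hif1a* were *Ripk2*, *Elovl5* and *Kpna4* (r = 0.96, 0.955 and 0.949). These are descriptions over 8 libraries, of which the 2 of a pair share tissue and diet but not always depth or cell makeup.

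**Figure D2:**
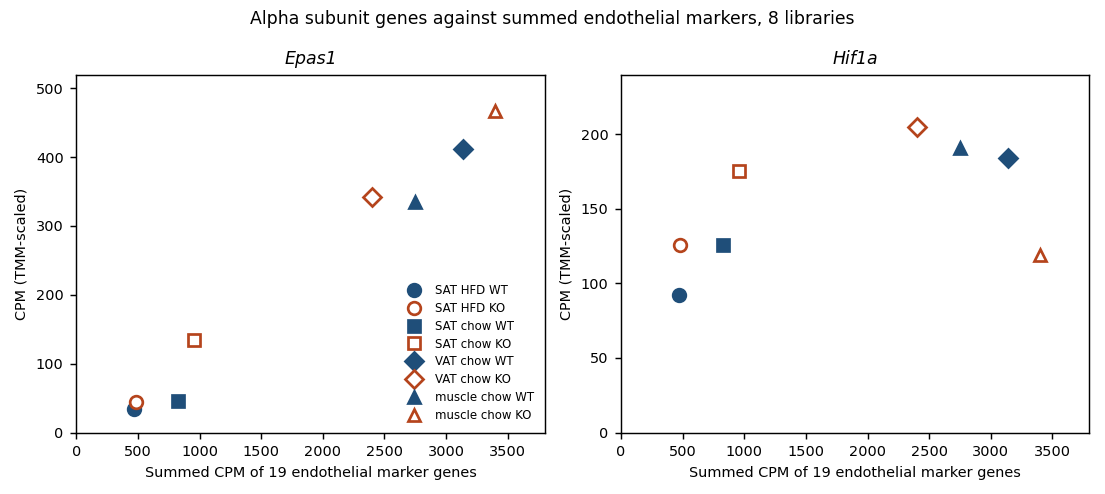
Level of *Epas1* (left) and *Hif1a* (right) in CPM against the summed CPM of 19 endothelial marker genes, 1 point per library, with shapes for tissue and diet, filled for WT and open for KO. *Epas1* is 34.7 CPM at the lowest sum (467 CPM) and 467 CPM at the highest (3400 CPM), while *Hif1a* is 92.1 and 119 CPM there.

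Of the beta subunit and the genes that destroy the alpha subunits, *Arnt* and *Vhl* spanned less than *Hif1a*, *Egln1* about as much and *Egln3* more. *Arnt* (chr3:95434388-95497240) ran from 69.7 to 114 CPM over the 8 libraries, a 1.64-fold span, with both extremes in SAT on chow. *Vhl*, the recognition part of the ubiquitin ligase (chr6:113623959-113631633), ran from 21.7 to 43.5 CPM, and *Egln1*, the main oxygen sensor (chr8:124908587-124949324), from 36.3 to 83.5 CPM. *Egln3* (chr12:54178981-54203860) spanned 8.86-fold, from 1.93 CPM in SAT on HFD, KO, to 17.1 CPM in muscle, KO. Of the targets, *Ddit4*, an inhibitor of mTORC1 signalling (chr10:59949669-59951834), had the highest level per kilobase, 31.5 to 77.6 CPM, and ranked first of the 10 in the SAT libraries and behind *Epas1* in VAT and muscle. *Bnip3*, a mitophagy receptor (chr7:138890836-138909519), *Adm*, which encodes the vasodilator peptide adrenomedullin (chr7:110627661-110629820), and *Ankrd37* (chr8:45996902-46005707) had lower medians, between 2.99 and 10.1 CPM. Of these 8 genes, none passed the test between tissues, except that *Ddit4* was lower in VAT than in SAT on chow without the SAT chow KO library (−1.33, adjusted p = 0.011, against −0.66 and 0.444 with it). The counts of *Ankrd37* are uncertain, as it overlaps *Ufsp2* on the other strand (111 to 388 counts), and use of strand in the counting is not given in the sources used here.

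Between diets in SAT, 0 of the 10 genes passed, as did 0.0% of all genes, by edgeR. At an unadjusted p under 0.05 stood 9.29% of all genes and 2 of the 10, *Epas1* and *Vhl*. The log2 fold change of *Epas1* was −1.10 (SE 0.44, adjusted p = 0.523 by edgeR) and that of *Vhl* −0.88 (SE 0.32, adjusted p = 0.51 by edgeR), with lower values on HFD. DESeq2's Wald test called 260 genes and none of the 10, and edgeR called none of the 10 with any single library left out. The value of *Epas1* rests on the SAT chow KO library, without which it was −0.32. The median of all genes in this comparison was −0.32, and it was −0.0851 with DESeq2's size factors, so values near it are not apart from the whole. The *Vhl* level was 21.7 and 23.2 CPM on HFD and 42.8 and 40.1 CPM on chow (WT and KO), without overlap, as for 33.6% of all genes. *Bnip3* had 2.02 and 4.79 CPM on HFD, below its 14.0 and 5.27 CPM on chow, at −1.40 (SE 0.78, adjusted p = 0.622). Single libraries moved this value, to −0.39 without SAT chow WT, −0.42 without SAT HFD WT, −2.16 without SAT chow KO and −2.45 without SAT HFD KO. The median of the 10 was −0.77, with 8 of 10 negative.

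**Figure D3:**
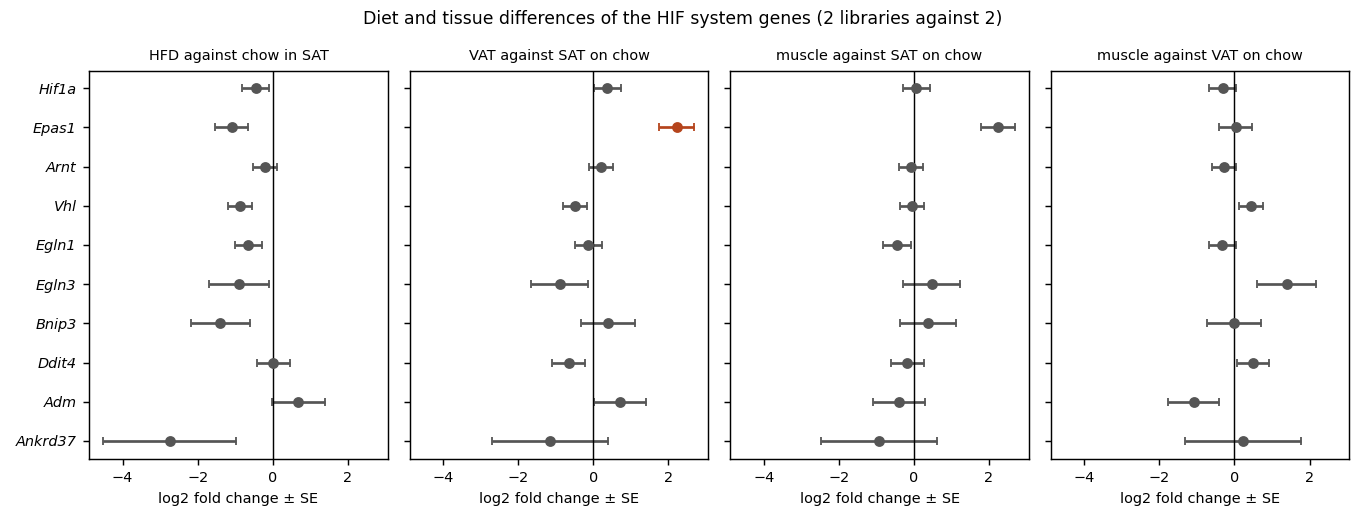
Fitted log2 fold change of each of the 10 genes (points) with its SE (bars) in 4 comparisons of 2 libraries against 2, the adjusted p under 0.05 in a second colour. *Epas1* in VAT against SAT, at 2.22, is the only value past the threshold, and the fitted *Ankrd37* value in the first panel rests on a library with 0 counts and is no bound.

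The comparison of KO with WT asked whether loss of *Tert* goes with a change of the HIF system in mG+ cells. As these libraries also held markers of other cells, the comparison cannot answer this for EC alone. Across the 4 pairs, no member passed: 0 of 10 by edgeR, against 0.00589% of all genes (1 of 16971), and 0 of 10 at an unadjusted p under 0.05, against 1.63%. DESeq2's Wald test called 19 genes and none of the 10. *Epas1* had the largest value among those above 0, 0.51 (SE 0.31, unadjusted p = 0.139 by edgeR), with higher levels in KO in 3 of 4 pairs. *Tert* in VAT, at 3 and 9 counts, was too low to check the labels. Without VAT, a choice made after seeing the data, the *Epas1* tally was 3 of 3, and the share of all genes with such a tally was not counted. Without the SAT chow pair the *Epas1* value was 0.17 (adjusted p = 0.998 by edgeR). Without the VAT pair *Epas1* stood at 0.81 (unadjusted p = 0.0474 by edgeR), which did not pass after adjustment. *Hif1a* stood at 0.10 (SE 0.26), also higher in 3 of 4 pairs (2 of 3 without VAT). *Egln3* had the most negative value, −0.73 (SE 0.58), which was −0.14 without the SAT HFD pair, and the other 7 lay between −0.19 and 0.22. The adjusted p of each was 1.0. The SE of 0.22 to 1.19 limits what the 4 pairs can show.

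Within a pair, the log2 ratio of KO to WT describes 1 library against 1, and its 95% interval covers counting error only. The *Hif1a* ratio was 0.45 (0.32 to 0.59) in HFD-fed SAT, 0.47 (0.39 to 0.55) in chow-fed SAT, 0.16 (0.07 to 0.25) in VAT and −0.69 (−0.77 to −0.60) in muscle. Its level was thus 1.37 and 1.38 times that of WT in the SAT pairs and lower than WT in muscle, in each case by less than 2-fold. The *Epas1* ratio was 1.54 (1.42 to 1.66) in SAT on chow, 2.9-fold, and 0.33, −0.27 and 0.48 in SAT on HFD, VAT and muscle. In SAT on chow *Arnt* was also higher in KO, by 0.71 (0.61 to 0.82). In this pair the 19 endothelial markers summed to 825 CPM in WT and 955 CPM in KO, a smaller step than that of *Epas1* (46.0 to 134 CPM). The 12 stromal genes moved more, 1200 to 4350 CPM, and 10 mural genes went from 69.4 to 235 CPM. Leukocyte sums fell: T cell genes from 4810 to 2320 CPM, B cell genes from 4680 to 2990 CPM, macrophage genes from 2160 to 893 CPM and neutrophil genes from 291 to 79.3 CPM. The part of cell makeup in the differences of this pair was not tested, for *Epas1* or for any other gene.

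In SAT on HFD, 3 of the 10 genes had counting intervals wholly beyond 2-fold, where 23.8% of all genes did. *Egln3* went from 13.7 CPM in WT (95 counts) to 1.93 CPM in KO (25 counts), a log2 ratio of −2.80 (−3.53 to −2.18). *Adm* went from 19.7 to 7.49 CPM, −1.39 (−1.78 to −1.01), and with library totals its interval no longer lay beyond 2-fold (ratio −1.32). *Ankrd37* had 0 counts in WT and 22 in KO (1.7 CPM), at least 3.92-fold higher against the floor of 3 counts, with a counting interval that starts at 1.55 on the log2 scale. The targets did not move as a group: *Bnip3* (2.02 to 4.79 CPM) and *Ddit4* (87.0 to 110 CPM) stood at 1.22 (0.39 to 2.19) and 0.34 (0.20 to 0.48). For 8 of the 10 the interval did not span 0, as for 72.6% of all genes. The members' median was 0.34, and that of all genes 0.06.

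In SAT on chow, 3 of the 10 were beyond 2-fold, where 30.6% of all genes were. Beside *Epas1* these were *Bnip3*, lower in KO at 14.0 to 5.27 CPM (−1.40, −1.79 to −1.04), and *Ddit4*, lower at 136 to 60.3 CPM (−1.18, −1.29 to −1.07). *Ankrd37* went from 7.98 to 3.22 CPM, −1.30 (−1.80 to −0.83), and *Egln1* from 83.5 to 52.5 CPM, −0.67 (−0.80 to −0.55). *Adm* was at 6.81 and 10.9 CPM, 0.68 (0.33 to 1.04). The wider list of HIF targets leaned the other way from *Bnip3*, *Ddit4* and *Ankrd37*: of 33 tested in this pair, 12 were higher in KO beyond 2-fold and 4 lower, where 19.1% and 11.5% of all genes were, and their median was 0.32. SAT on HFD and muscle did not share that lean, with 0 higher and 3 lower, and 0 higher and 1 lower. In VAT as labelled, 4 of 33 tested were higher and 0 lower, with a list median of 0.03. Either way, 23.8%, 4.5% and 4.77% of all genes were beyond 2-fold in SAT on HFD, VAT and muscle. With DESeq2's size factors, library totals or upper quartile scaling, the count of members lower beyond 2-fold in SAT on chow was 0, with *Bnip3* at −1.18 to −1.30 and *Ddit4* at −0.95 to −1.07. For 8 of the 10 the interval did not span 0, as for 81.3% of all genes. The median of the 10 was −0.05, against 0.00 for all genes.

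**Figure D4:**
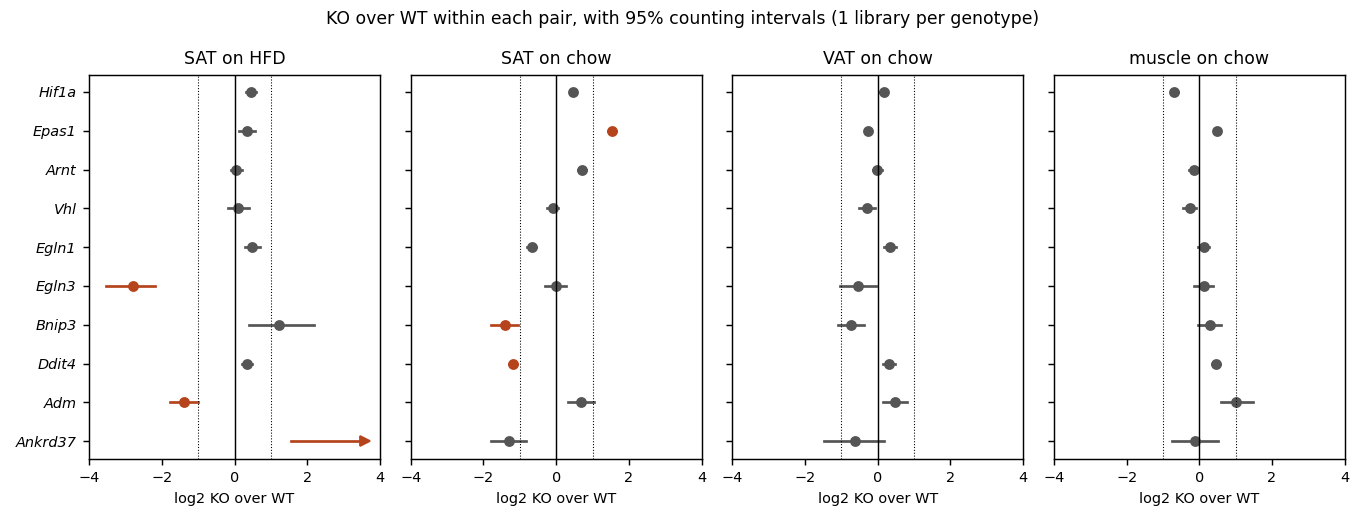
Log2 ratio of KO to WT for each gene in the 4 pairs (points) with 95% counting intervals (bars), dotted lines at 2-fold and a second colour for intervals wholly beyond them; the arrow marks *Ankrd37* in SAT on HFD, with 0 counts in WT and an interval open above. 3 genes pass in each SAT pair and 0 in VAT and muscle.

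In VAT and in muscle, 0 of the 10 genes were beyond 2-fold, against 4.5% and 4.77% of all genes. The interval did not span 0 for 8 of the 10 in VAT and 6 of the 10 in muscle, and for 51.3% and 55.9% of all genes. In VAT, *Bnip3* stood at 15.7 CPM in the library labelled WT and 9.35 CPM in that labelled KO, −0.74 (−1.10 to −0.39), and *Adm* at 12 and 16.6 CPM, 0.47 (0.13 to 0.81). In muscle, *Adm* stood at 4.48 and 9.14 CPM, 1.02 (0.60 to 1.47), *Ddit4* at 73.0 and 101 CPM, 0.46 (0.35 to 0.58), and *Egln3* at 15.8 and 17.1 CPM, 0.12 (−0.15 to 0.38). Leaving VAT aside, *Adm* was above WT in both other chow pairs and below it in SAT on HFD, and *Ddit4* was above it in 2 of 3 pairs and below it in SAT on chow. *Vhl* was lower in the VAT library labelled KO and in muscle KO, at −0.30 and −0.27, and its interval spanned 0 in both SAT pairs. The members' medians were −0.14 in VAT and 0.12 in muscle, and those of all genes 0.01 and 0.00.

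A list of 14 other HIF pathway components and a list of 34 other HIF targets were read beside these genes. No component passed in any of the 5 comparisons (0 of 14 tested), with medians of 0.22 for KO over WT, −0.18 for HFD against chow, −0.20 for VAT and −0.32 for muscle against SAT, and 0.02 for muscle against VAT. The targets had 0 of 34 passing for KO over WT and for HFD, and 3 of 34 in VAT against SAT, where 5.0% of all genes passed. *Hmox1*, the haem-degrading enzyme that macrophages also make, was higher in VAT by 5.01 (SE 0.96, adjusted p = 0.0288). It measured 1320 and 1340 CPM in VAT and 22.5 and 51.9 CPM in SAT on chow beside summed macrophage genes of 14600 and 14500 CPM in VAT and 2160 and 893 CPM in SAT on chow, whose part in the difference was not tested. *Plod1*, a collagen lysyl hydroxylase, was higher in VAT by 2.25 (SE 0.31, adjusted p = 0.0107), at 116 and 129 CPM against 22.0 and 29.8 CPM. *Pdk1*, which limits the use of pyruvate in the mitochondria, was lower in VAT, at −2.64 (SE 0.34, adjusted p = 0.00935), at 29.9 and 21.8 CPM against 186 and 137 CPM in SAT. In muscle against SAT, 2 of 34 passed (1.27% of all genes): *Pfkfb4* was higher, 2.39 (SE 0.34, adjusted p = 0.0234), and *Pdk1* lower, −1.82 (SE 0.33, adjusted p = 0.0483). In muscle against VAT, 1 of 34 passed (2.02% of all genes), *Angptl4*, a secreted inhibitor of lipoprotein lipase, which was lower in muscle at −3.27 (SE 0.62, adjusted p = 0.0431). The list median was 0.68 in VAT and 0.58 in muscle against SAT, beside −0.13 and −0.11 for all genes, 0.23 against 0.06 in muscle against VAT, −0.32 against −0.32 for HFD and 0.07 against 0.03 for KO over WT. The targets called against SAT thus went both ways, and none passed by diet or genotype. Of all 34, called or not, 24 had values above 0 and 10 below in VAT against SAT. In muscle against SAT these counts were 27 and 7, and in muscle against VAT 19 and 15. On leaving out 1 library, each call against SAT was lost without either VAT or either muscle library of the comparison, and that of *Angptl4* without any single VAT or muscle library. *Pdk1* in muscle was also lost without any other single library but SAT chow KO. Of 15 alternatives, *Pdk1* and *Plod1* in VAT and *Pfkfb4* passed in 13, *Hmox1* in 12 (adjusted p = 0.152 with a mean of 1 count or more), *Angptl4* in 9 and *Pdk1* in muscle in 5, where the 3 other scalings lost it.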

How the data were processed

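RNAseq was done on mG+ cells of 8 mouse libraries. The deposited values are raw read counts for each Ensembl gene, not normalized by the authors. The submitters' processing notes name HISAT2 2.0.5 and GRCm38 (mm10), while the counting program, strand and annotation release are not given in the sources used here. The labels give a column-based RNA kit and the paper's methods Trizol. Samples were grouped by tissue, diet and genotype in the labels.

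Counts were scaled by TMM (edgeR 4.0.16, R 4.3.3). The 16971 genes averaging at least 10 counts were tested with edgeR's robust quasi-likelihood test, with tissue and diet (4 levels) and genotype in 1 model (3 residual degrees of freedom), and Benjamini-Hochberg adjustment at 0.05. Within pairs, log2 ratios of CPM had a prior count of 0.5 and exact conditional binomial 95% intervals, and a gene was called where the interval lay wholly beyond 2-fold. With 1 library per group, p-values rest on how far the ratio of KO to WT differs between the 4 pairs. That spread holds technical differences and any true difference of the ratio between tissues and diets, which cannot be told apart. The named genes were the 10 members, up to 5 called genes each way of the other lists, and the 3 genes most like *Hif1a* and *Epas1*. The members and the lists were chosen with earlier results of these data known. Alternatives were other scalings (DESeq2 1.42.0 size factors, library totals, upper quartile), other filters (mean of 1 or 50 counts), DESeq2's Wald test, no block, genotype left out, each pair or library left out, a prior count of 5 and a 1.5-fold call. Leaving VAT out of the tallies of pairs, and exchanging its labels, were chosen after seeing the data. Promoters are RefSeq's, and exons GENCODE M21's. The fit was run on simulated counts with less spread than these libraries, whose fitted biological coefficient of variation was 0.567. That run therefore does not cover noise as large as theirs.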

Additional observations from a re-analysis of the deposited data

Results flagged for a closer look

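The *Ddit4* ratio of KO to WT in SAT on chow, −1.18 on the log2 scale, lay apart from those of the other 3 pairs (0.31 to 0.46). Its gap to the nearest pair was 0.909 of the range, above Dixon's 95% critical value for 4 values. That value rests on the VAT labels, which *Tert* does not bear out. With the labels of VAT exchanged, an alternative chosen after seeing the data, the ratio was 0.53 for *Ddit4*, below the critical value, and 0.835 for *Epas1* and *Egln3*, just above it. In all, 10 genes were checked this way, and chance flags about 1 in 20. The *Adm* ratio was 1.02 in muscle and −1.39 in SAT on HFD, with counting intervals beyond 1.5-fold in opposite directions. *Ankrd37* was at least 3.92-fold higher in KO in SAT on HFD against the floor of 3 counts (0 against 22 counts, with an interval from 1.55 on the log2 scale) and lower in SAT on chow, at −1.30. For *Adm* and *Ankrd37* the difference between pairs was not tested, as each pair holds 1 library per genotype.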

How the results depend on the processing

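The main limit is that each tissue and diet holds 1 library per genotype, so the 4 pairs, which differ in tissue and diet, are the only replication of the genotype. Of 705 alternative values of the 10 genes in the 5 comparisons, 626 kept their direction and their side of the threshold, 4 of the called ones missed it, 4 uncalled ones passed it and 71 changed sign. All of these sign changes were in values that had not passed the test. The cause was not tested. Counts in SAT on HFD, WT, limit *Bnip3* (14 counts) and *Ankrd37* (0 counts) most.

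For KO over WT, the count of genes called went from 1 to 0 with upper quartile scaling and without the block, to 5 with a mean of at least 1 count and to 19 with DESeq2's Wald test, and ran from 0 (without VAT) to 2 (without muscle) with 1 pair left out. *Ddit4* turned to 0.01 (DESeq2 size factors, upper quartile, Wald test) and 0.1 (library totals), and *Ankrd37* to −0.55 without the block. With 1 pair left out, *Hif1a* ran from −0.03 to 0.36, *Arnt* from −0.05 to 0.25, *Egln1* from −0.07 to 0.31, *Bnip3* from −0.62 to 0.22, *Ddit4* from −0.17 to 0.37, *Adm* from −0.06 to 0.72 and *Ankrd37* from −0.70 to 0.80.

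For HFD against chow in SAT, the count of genes went from 0 to 119 with a mean of at least 1 count, to 260 with the Wald test and to 441 without the SAT chow KO library (0 to 441 over single libraries left out). *Arnt* turned to 0.02 (DESeq2 size factors, Wald test), 0.08 (library totals) and 0.05 (upper quartile). With 1 library left out, *Arnt* ran from −0.40 to 0.20, *Egln1* from −1.11 to 0.03, *Egln3* from −2.39 to 0.14, *Ddit4* from −0.66 to 1.04 and *Adm* from −0.40 to 1.55.

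For VAT against SAT on chow, the count went from 849 to 1583 with a mean of at least 1 count and to 2307 with the Wald test, and from 108 (without VAT WT) to 3510 (without SAT chow KO). The members called were 0 with upper quartile scaling, and 0 (without SAT HFD KO, for example) to 2 (without SAT chow KO). *Egln1* turned to 0.05 (DESeq2 size factors, Wald test). With 1 library left out, *Egln1* ran from −0.58 to 0.56, *Bnip3* from −0.24 to 1.56, *Ddit4* from −1.33 to 0.38 and *Ankrd37* from −1.91 to 0.35. The adjusted p of *Epas1* ran from 1.51e-05 to 0.187 over 15 alternatives, 11 of them past the threshold.

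For muscle against SAT on chow, the count went from 215 to 142 (upper quartile), 634 (mean of at least 1 count), 1063 (Wald test) and 338 (genotype left out), and from 39 (without muscle KO) to 1771 (without SAT chow KO). The members called went from 0 to 1, *Epas1*, with a mean of at least 1 count, with the Wald test and without SAT chow KO (0 to 1 over single libraries left out). *Arnt* turned to 0.01 and *Vhl* to 0.04 (DESeq2 size factors, Wald test), and *Vhl* to 0.03 (library totals). With 1 library left out, *Hif1a* ran from −0.51 to 0.60, *Arnt* from −0.33 to 0.31, *Vhl* from −0.15 to 0.08, *Egln1* from −0.89 to 0.20, *Egln3* from −0.16 to 1.07, *Bnip3* from −0.32 to 1.42, *Ddit4* from −0.85 to 0.81, *Adm* from −0.96 to 0.07 and *Ankrd37* from −1.72 to 0.47.

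For muscle against VAT, the count went from 343 to 800 (mean of at least 1 count), 1255 (Wald test) and 539 (genotype left out), and from 39 (without VAT KO) to 1264 (without SAT chow WT). *Epas1* turned to −0.05 (DESeq2 size factors, upper quartile, Wald test) and *Bnip3* to 0.03 (library totals). With 1 library left out, *Hif1a* ran from −0.89 to 0.15, *Epas1* from −0.52 to 0.59, *Bnip3* from −0.47 to 0.37 and *Ankrd37* from −0.38 to 0.92.

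Within pairs, the members lower beyond 2-fold went from 2 to 1 in SAT on HFD (library totals) and from 2 to 0 in SAT on chow (DESeq2 size factors, library totals, upper quartile). At 1.5-fold, 2 members were higher in SAT on chow, and 1 was higher and 1 lower in muscle. No called ratio changed sign, and the mean level of each of the 10 genes moved by less than its SD over the libraries with the other scalings.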
